A study of Homo sapiens with 3 samples.

Results

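The epithelial ETS factor genes are 7 genes of the ETS family of transcription factors, ELF3, EHF, ELF5, SPDEF, ELF1, ELF2 and ELF4, out of 20163 protein-coding genes annotated on the nuclear chromosomes. Their loci were examined for binding of ETS1, the founding member of the same family, in SCC25, an established human cell line of tongue squamous cell carcinoma. Untreated cells were used throughout, in 3 ChIP-Seq samples that differ by polyclonal antibody against ETS1, with C20 used in 2 and 501A in 1. All results therefore describe a single cell line in 1 condition. The authors deposited 1 consensus list of peaks for the 3 samples together, which gives only peak coordinates, with no signal, score or value per sample. A peak belonged to a gene when its midpoint fell in the gene body or within 100 kb of it on hg19, with gene models from GENCODE release 44. By this rule 29 of the 26961 nuclear peaks fell in the windows of the 7 genes. The whole list has 26970 peaks. What was measured is the number, position, width and sequence of these peaks. No replicate error can be given for a pooled list, the list itself carries no read counts, and the intervals below (95%, Wilson) cover the counting of genes or peaks only. The list holds no expression, so the epithelial character of the cells and the activity of these 7 genes could not be checked from it.

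ETS factors bind DNA through a shared domain that reads the core GGAA, and the flanking bases differ between subfamilies. ELF3, EHF and ELF5 form the epithelium-specific group, which acts in the terminal differentiation of squamous, airway, mammary and other epithelia. SPDEF stands apart in its sequence preference and drives secretory cells such as goblet cells. ELF1, ELF2 and ELF4 are close relatives of one another that are expressed broadly, with much of their known function in blood cells, so that they are epithelial by their family ties and not by restriction to epithelium.

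Sequences are shown for 8 peaks chosen as examples, with none from ELF1 or ELF4. They are the peak at an EHF start site, the paired EHF intron peaks and the single intron peaks of ELF5 and SPDEF. The others are the peak at the internal start of ELF2, and 1 peak outside the gene at each of EHF and ELF3. Each is the stretch of the peak nearest its midpoint, at most 300 bases, outside annotated exons, read from GRCh37, the same nuclear sequence as hg19. Capitals mark every GGAA, or TTCC where the core lies on the minus strand, and every AP-1 site (TGACTCA or TGAGTCA), since AP-1 factors often bind beside ETS factors.
EHF start site, chr11:34645673-34645806, plus strand: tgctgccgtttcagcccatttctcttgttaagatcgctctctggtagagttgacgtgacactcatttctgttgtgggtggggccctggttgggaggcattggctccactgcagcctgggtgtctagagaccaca
EHF intron 6, first, chr11:34675462-34675761, plus strand: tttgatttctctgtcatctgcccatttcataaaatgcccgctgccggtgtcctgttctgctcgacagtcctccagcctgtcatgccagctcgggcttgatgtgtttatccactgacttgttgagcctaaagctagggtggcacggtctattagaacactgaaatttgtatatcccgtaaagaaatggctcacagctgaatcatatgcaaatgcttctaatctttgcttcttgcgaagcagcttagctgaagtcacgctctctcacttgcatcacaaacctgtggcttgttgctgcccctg
EHF intron 6, second, chr11:34676471-34676770, plus strand: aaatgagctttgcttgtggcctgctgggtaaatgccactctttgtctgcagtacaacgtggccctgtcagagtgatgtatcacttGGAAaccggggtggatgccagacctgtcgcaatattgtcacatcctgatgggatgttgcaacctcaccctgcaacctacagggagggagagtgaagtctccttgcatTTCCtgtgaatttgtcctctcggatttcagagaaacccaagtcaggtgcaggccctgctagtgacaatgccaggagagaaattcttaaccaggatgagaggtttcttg
EHF upstream, chr11:34631432-34631731, plus strand: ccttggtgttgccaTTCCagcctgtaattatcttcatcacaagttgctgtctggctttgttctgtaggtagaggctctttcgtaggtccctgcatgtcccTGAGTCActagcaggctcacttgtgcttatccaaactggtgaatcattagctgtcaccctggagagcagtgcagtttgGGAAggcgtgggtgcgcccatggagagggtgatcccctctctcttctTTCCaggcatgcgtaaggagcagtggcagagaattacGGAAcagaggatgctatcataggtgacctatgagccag
ELF5 intron 2, chr11:34523133-34523432, plus strand: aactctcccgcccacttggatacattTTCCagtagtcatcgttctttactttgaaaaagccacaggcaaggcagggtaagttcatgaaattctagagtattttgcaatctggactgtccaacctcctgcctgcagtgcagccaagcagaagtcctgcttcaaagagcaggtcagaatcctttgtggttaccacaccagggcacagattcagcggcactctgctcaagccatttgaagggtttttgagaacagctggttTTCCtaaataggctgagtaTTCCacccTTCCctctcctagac
SPDEF intron 1, chr6:34517317-34517616, plus strand: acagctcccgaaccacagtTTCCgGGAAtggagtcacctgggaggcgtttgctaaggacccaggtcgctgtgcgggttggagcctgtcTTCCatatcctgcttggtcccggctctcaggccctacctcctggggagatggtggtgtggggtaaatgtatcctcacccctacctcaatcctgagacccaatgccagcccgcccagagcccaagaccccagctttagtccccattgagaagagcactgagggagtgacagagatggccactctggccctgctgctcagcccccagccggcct
ELF3 downstream, chr1:201987743-201988042, plus strand: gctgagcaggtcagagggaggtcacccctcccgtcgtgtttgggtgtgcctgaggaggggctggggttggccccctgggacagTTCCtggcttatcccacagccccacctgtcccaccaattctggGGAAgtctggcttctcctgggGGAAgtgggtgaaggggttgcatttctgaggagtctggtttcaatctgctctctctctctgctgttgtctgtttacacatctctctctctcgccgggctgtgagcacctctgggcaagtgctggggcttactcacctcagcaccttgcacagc
ELF2 internal start, chr4:140004771-140005070, plus strand: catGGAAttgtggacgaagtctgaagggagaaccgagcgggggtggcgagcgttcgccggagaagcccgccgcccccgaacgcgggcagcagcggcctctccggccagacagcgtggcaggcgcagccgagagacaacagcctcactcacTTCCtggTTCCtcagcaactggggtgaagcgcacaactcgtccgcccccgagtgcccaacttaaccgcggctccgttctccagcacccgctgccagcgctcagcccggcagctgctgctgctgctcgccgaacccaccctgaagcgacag
The EHF start site stretch, cut short by an exon, held no GGAA core, although the full 300 bp at that midpoint held 1. The first EHF intron 6 peak held none in its 300 bases, whereas the second held 2, the ELF5 intron held 4 and the SPDEF intron held 3. In the SPDEF intron, 2 of the cores face each other across 1 base, and the first of them reads CCGGAA on the minus strand. The ELF2 stretch held 3 cores. The EHF upstream stretch held 1 AP-1 site.

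The first comparison asked which of the 7 genes carried ETS1 at a transcription start site (TSS). A peak midpoint lay within 500 bp of an annotated TSS in 4 genes, ELF3, EHF, ELF1 and ELF2, and in none for ELF5, SPDEF and ELF4. Among all 20163 protein-coding genes the share was 53.1% (52.4 to 53.8%), so 4 of 7 was near the background. At the canonical TSS, the start of the transcript that the annotation chooses to stand for the gene, only ELF2 had a peak, against 46.7% of 19881 protein-coding genes with such a transcript. The peaks at ELF3, EHF and ELF1 lay at an alternative start.

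ELF2 lies on the minus strand (chr4:139949266-140098372). Its canonical TSS at 140098372 was 112 bp from the midpoint of a peak of 2697 bp (chr4:140097136-140099832), which was wider than 95.9% of the nuclear peaks. That peak also covered the start of a neighbouring gene known only by its identifier, ENSG00000288785, which starts within 500 bp of its midpoint. A second peak of 2039 bp (chr4:140003902-140005940) lay 93451 bp inside the gene, in intron 4 of the canonical transcript, and covered 5 annotated starts of ELF2 transcripts. The nearest of these was 457 bp from its midpoint, just inside the limit of 500 bp, and the next was 558 bp away. In the sequence of this internal peak shown above, the copy of CTTCCT, which is AGGAAG on the minus strand, was centred 2 bp from the midpoint.

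ELF1, also on the minus strand (chr13:41506060-41635576), had a peak of 2242 bp (chr13:41634119-41636360) at its outermost start at 41635576, 337 bp from the midpoint. The same peak covered the TSS of WBP4, a gene for a splicing protein. The canonical TSS of ELF1 at 41593452 lay 41787 bp from the nearest peak midpoint. The outer start had a CpG observed-over-expected ratio of 0.842 in the 500 bp on each side, and the canonical start one of 0.17.

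ELF3 lies on the plus strand (chr1:201977073-201986311). Its peak of 786 bp (chr1:201976910-201977695) covered the outermost annotated start of the gene, at 201977073, 229 bp from the midpoint, and was 2413 bp from the canonical TSS. This peak also lay within ELF3-AS1, an antisense gene, and the list cannot assign it to either strand.

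At EHF, on the plus strand (chr11:34642640-34684835), a peak of 306 bp (chr11:34645673-34645978) had its midpoint 2 bp from an annotated start of EHF, and 12 and 18 bp from 2 further starts. It was the narrowest of the 29 peaks, and 1.95% of the nuclear peaks were narrower. It lay 3185 bp inside the canonical transcript, in its intron 1. The RefSeq promoter table (GRCh38.p14) places a start of EHF at this position, by exact match of its 300 bases to GRCh37, 21 bp from the midpoint, and the EHF start site stretch printed above lies whole within that entry. All 13 RefSeq promoter entries of the 7 genes matched GRCh37 once, and 4 of them, 1 of EHF, 1 of ELF1 and 2 of ELF2, had a peak within 500 bp. By RefSeq the start of ELF3 is the canonical one, so that its peak fell at no RefSeq start.

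**Figure D1:**
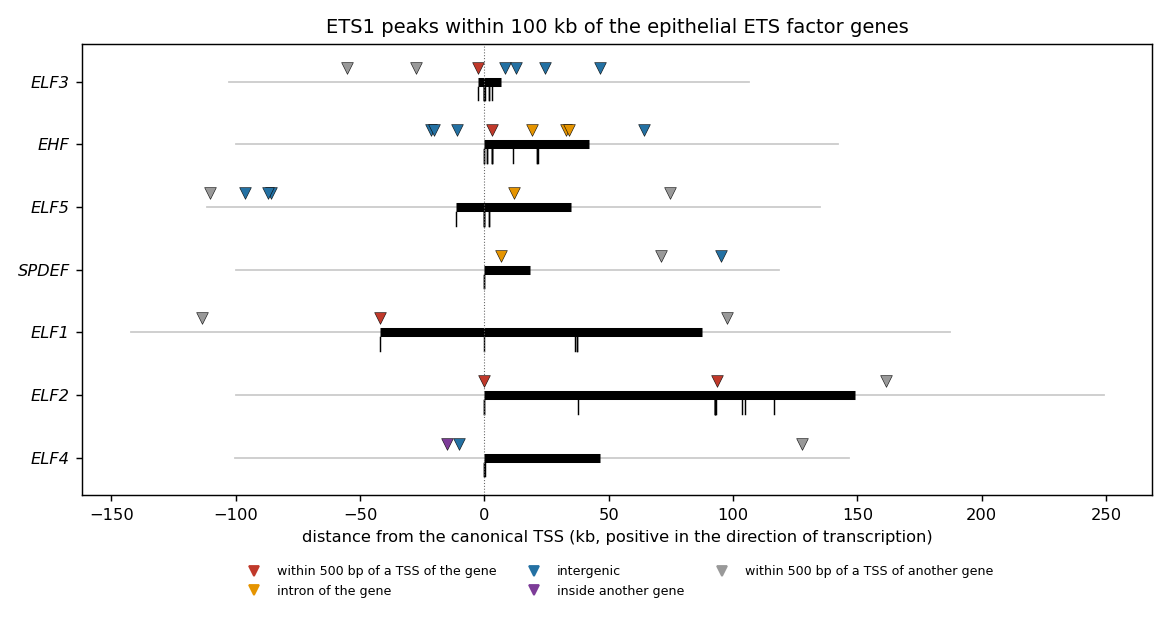
Positions of the ETS1 peak midpoints (triangles, coloured by class) in the windows of the 7 genes, as distance in kb from the canonical TSS in the direction of transcription. Black bars are gene bodies, ticks below them are annotated TSSs and grey lines are the windows of 100 kb on each side; EHF and ELF5 share 4 peaks, and of the 7 canonical TSSs only that of ELF2 has a peak within 500 bp.

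Binding at promoters went with CpG content across all genes, and the 7 genes were set against it. Of the 13220 protein-coding genes with a CpG ratio of at least 0.6 at the canonical TSS, 64.5% (63.7 to 65.3%) had a peak within 500 bp of it, and of the 6643 genes below 0.6, 11.4% (10.7 to 12.2%) did. Over all annotated TSSs of a gene the shares were 71% and 19.5%. The ratio at the canonical TSS was 0.271 for ELF3, 0.123 for EHF, 0.395 for ELF5, 0.191 for SPDEF and 0.17 for ELF1, all in the class below 0.6. ELF2 had a ratio of 0.879 and ELF4 one of 0.921. Of these 2 genes with CpG-rich canonical promoters, ELF2 had a peak at the TSS and ELF4 had none. The 3 annotated starts of ELF4 had ratios of 0.907 to 0.951, and the nearest peak midpoint was 10141 bp from the closest of them.

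Of the CpG-poor members, ELF3, EHF, SPDEF and ELF5 had a peak nearer to the canonical TSS than the median of their class, and ELF1 did not. The distance to the nearest midpoint was 2413 bp for ELF3 and 3185 bp for EHF, below the lower quartile of 5228 bp over CpG-poor genes. It was 6639 bp for SPDEF and 12058 bp for ELF5, between that quartile and the median of 28629 bp, and 41787 bp for ELF1, above the median. The canonical TSSs of ELF1 and EHF are not RefSeq starts, so these values depend on the annotation. The RefSeq start of ELF1 at 41635522 had a ratio of 0.862 and a peak at 283 bp. Those at 41556418 and 41557035 had ratios of 0.461 and 0.364, with the nearest peak at 60591 and 61208 bp. The RefSeq starts of EHF had ratios of 0.34 and 0.222, with the nearest peak at 21 and 7575 bp.

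**Figure D2:**
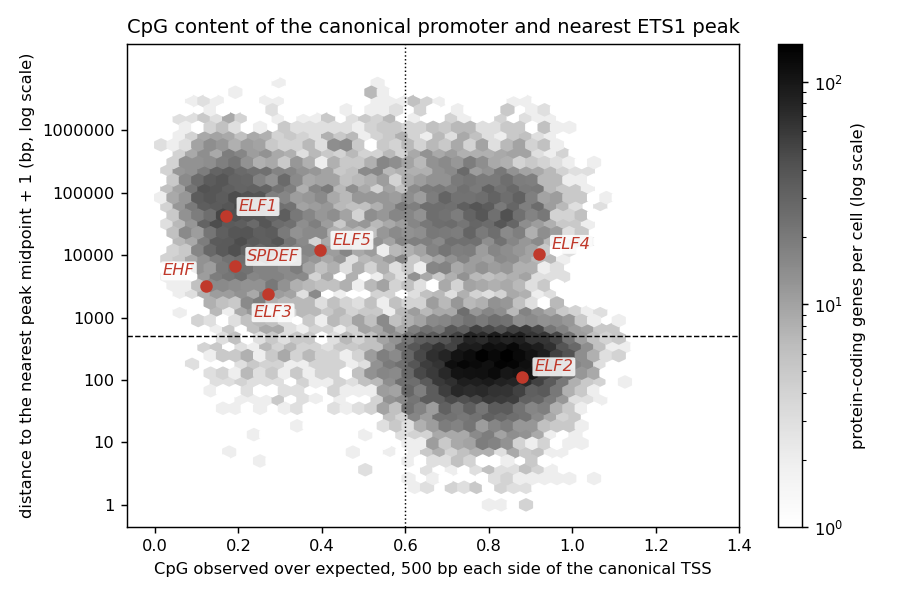
CpG observed over expected within 500 bp on each side of the canonical TSS (horizontal axis) against the distance from that TSS to the nearest ETS1 peak midpoint plus 1 bp (vertical axis, log scale), with all protein-coding genes in grey and the 7 genes in red. The dashed line is 500 bp and the dotted line a ratio of 0.6; ELF2 lies below the dashed line and ELF4, at 0.921, lies above it.

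A peak in the gene body was found in 6 of the 7 genes, against 53.4% of protein-coding genes. ELF4 was the exception, with no peak at a TSS or in the body, as in 37.5% of protein-coding genes. Peaks in an intron of the canonical transcript and over 500 bp from every TSS of any gene occurred in 3 genes, EHF, ELF5 and SPDEF, against 15.8% of 19881 genes. ELF5 and SPDEF had such an intron peak and none at a TSS, a pattern found in 6.28% of genes (5.95 to 6.62%). Among genes with a CpG ratio below 0.6 at the canonical TSS, as in ELF5 and SPDEF, it was found in 7.12% (6.53 to 7.76%). These shares were not matched for gene length. The bodies of EHF, ELF5, ELF4, ELF1 and ELF2 were 42.2 to 149 kb long, against a median of 27.2 kb over protein-coding genes. SPDEF, at 18.5 kb, and ELF3, at 9.24 kb, were shorter than that median.

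EHF had 3 intron peaks. The peak in intron 1 (chr11:34661180-34662196) was 1017 bp wide and lay 19048 bp from the canonical TSS. It was 2036 bp from the nearest annotated start of EHF. The other 2, in intron 6, were narrow, with widths of 455 bp (chr11:34675385-34675839) and 355 bp (chr11:34676444-34676798), and were separated by 604 bp. Together with the peak at its alternative start, EHF thus carried 4 peaks in a body of 42.2 kb.

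ELF5, a regulator of mammary alveolar cells and of trophoblast, lies on the minus strand (chr11:34500338-34546740). Its only intragenic peak, in intron 2 (chr11:34523110-34523457), was 348 bp wide and lay 12058 bp from the canonical TSS and 10063 bp from the nearest of the 6 annotated starts of the gene. SPDEF, also on the minus strand (chr6:34505579-34524110), had 1 intragenic peak, of 748 bp in intron 1 (chr6:34517094-34517841), at 6639 bp from the canonical TSS. Its list position was 4772, among the earlier lines, and that of the ELF5 intron peak was 7796. The meaning of the order is not given in the sources used here.

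The 5 intron peaks had a median width of 455 bp (range 348 to 1017 bp), and the 5 peaks at TSSs of the 7 genes one of 2039 bp (range 306 to 2697 bp). The ranges overlap. The start site peaks of EHF and ELF3 were 306 and 786 bp wide, while those of ELF1 and ELF2 were 2039 bp or wider. Over all nuclear peaks the median was 740 bp at over 500 bp from a TSS and 1262 bp within 500 bp of one.

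**Figure D3:**
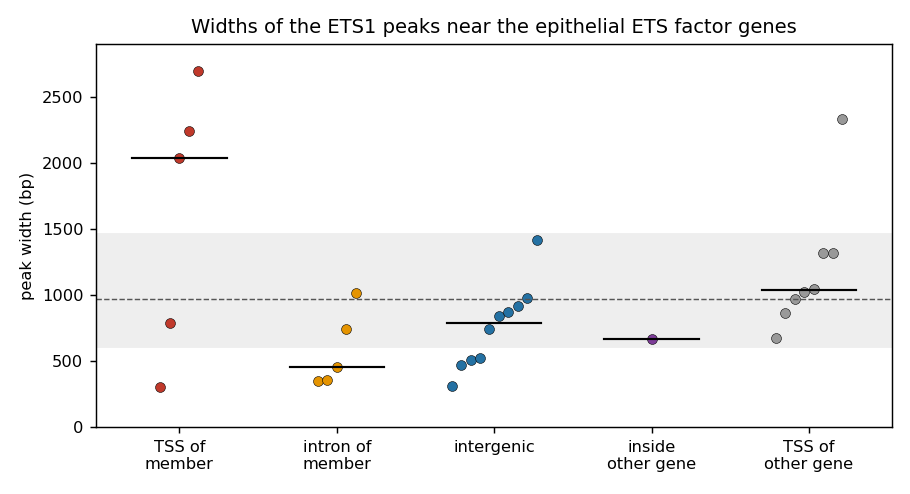
Width in bp of each of the 29 ETS1 peaks, by position class, with the median of each class as a black line. The dashed line and the grey band are the median (969 bp) and quartiles of all nuclear peaks; the 3 peaks of 2039 to 2697 bp at member TSSs belong to ELF1 and ELF2, and the narrowest of that class, at 306 bp, to EHF.

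The windows held 7 peaks at ELF3, 8 at EHF, 6 at ELF5 and 3 each at SPDEF, ELF1, ELF2 and ELF4. All 7 genes had at least 1, as did 87.5% of protein-coding genes, whose median was 4 (quartiles 2 and 8). Since the windows of EHF and ELF5, neighbours on chromosome 11, share 4 peaks, these 33 assignments are 29 distinct peaks. Per 100 kb of window, where the median gene had 1.6 peaks (quartiles 0.555 and 3.36), ELF3 had 3.35 and EHF 3.3, close to the upper quartile. ELF5 had 2.44, SPDEF 1.37, ELF4 1.22, ELF1 0.91 and ELF2 0.859. All 7 values lay between the quartiles of protein-coding genes.

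Of the 29 peaks, 5 lay at a TSS of a member, 5 in an intron of a member, 10 in intergenic sequence, 1 inside another gene and 8 at the TSS of another gene. The 8 are assigned by distance only, and each lies at the start of its own gene. They were TIMM17A and RNPEP at ELF3, CAT, the catalase gene, at ELF5, PACSIN1 at SPDEF, KBTBD6 and the pseudogene SUGT1P3 at ELF1, NOCT at ELF2 and BCORL1 at ELF4.

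Distal peaks, defined as over 500 bp from every annotated TSS, numbered 16. EHF had 7, ELF3 and ELF5 had 4 each, SPDEF and ELF4 had 2 each, and ELF1 and ELF2 had 0. The 5 genes with any compare with 65.7% of protein-coding genes, whose median was 1 (quartiles 0 and 4). Fewer distal peaks than EHF were found at 90.1% of protein-coding genes, fewer than ELF3 or ELF5 at 73.4%, and fewer than SPDEF or ELF4 at 52.5%. The 2 windows without a distal peak were the longest of the 7, 330 kb at ELF1 and 349 kb at ELF2, and their 6 peaks were all at TSSs. Counting 3 of the distal peaks for both EHF and ELF5, the range was thus 4 to 7 at ELF3, EHF and ELF5. It was 0 to 2 at SPDEF, ELF1, ELF2 and ELF4. This split did not hold with a window of 50 kb, an alternative added after seeing the data, where ELF5 had 1 distal peak and ELF4 had 2.

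**Figure D4:**
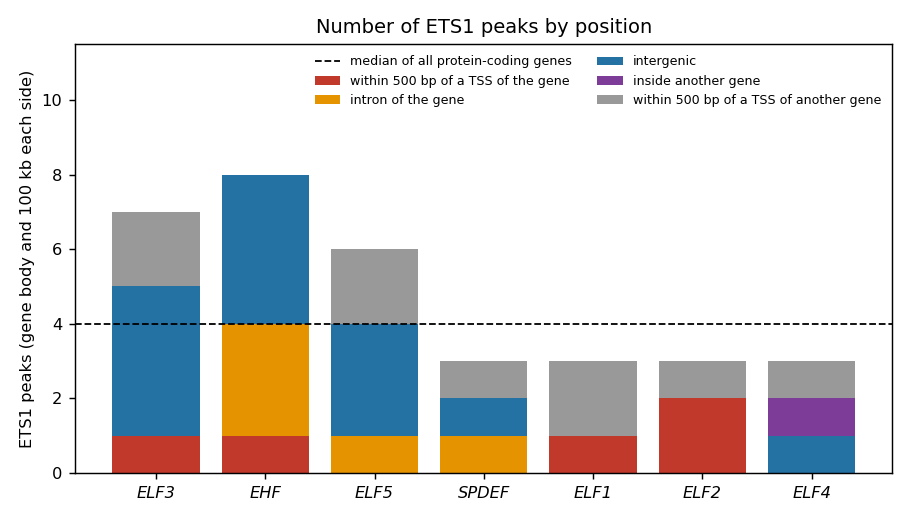
Number of ETS1 peaks in the gene body and 100 kb on each side for the 7 genes, stacked by position class; peaks shared by EHF and ELF5 are counted in both. The dashed line is the median of all protein-coding genes (4 peaks); ELF3, EHF and ELF5 lie above it with 7, 8 and 6, and the other 4 genes lie below it with 3 each.

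Between ELF5 and EHF, which are transcribed away from each other, 3 intergenic peaks lay upstream of both genes. They were 872 bp (chr11:34620839-34621710), 842 bp (chr11:34621775-34622616) and 313 bp (chr11:34631426-34631738) wide. The first and second were separated by 64 bp. All 3 were nearer to EHF, at 21366, 20445 and 11058 bp from its body, than to ELF5, at 74534, 75455 and 84842 bp. A further intergenic peak (chr11:34706727-34707234) lay 22145 bp downstream of EHF. The window of ELF5 at 100 kb just took in the EHF start site peak, at 99085 bp, while its next peak, at 114948 bp, was outside. With a window of 50 kb, ELF5 kept 2 peaks, its own intron peak and that at CAT, and EHF kept 8.

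At ELF3 the 4 distal peaks were all downstream of the gene, between 1582 and 39815 bp from its end. The nearest (chr1:201987186-201988600) was 1415 bp wide, wider than 73% of nuclear peaks, and the earliest of the 7 ELF3 peaks in the list, at position 4449. At ELF4, on the minus strand of chromosome X (chrX:129197930-129244691), the distal peaks were both upstream, an intergenic one of 981 bp at 10141 bp (chrX:129254342-129255322) and one of 668 bp at 14784 bp (chrX:129259142-129259809) inside AIFM1, the gene of a mitochondrial flavoprotein. The nearest peak outside the ELF4 window lay at 102625 bp, and the farthest inside it, at BCORL1, at 81167 bp. SPDEF had 1 intergenic peak, of 523 bp (chr6:34428645-34429167), at 76673 bp downstream.

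The sequence at the 29 peaks was searched on both strands of the 300 bp centred on each midpoint. The words were AGGAAG or AGGAAA, longer forms of GGAA that are called the core in this paragraph. The core was present in 9 peaks (31%, 17.3 to 49.2%), against 56.8% of all 26961 nuclear peaks in windows of the same length. Over 500 bp from a TSS it was present in 5 of 16 peaks (31.2%, 14.2 to 55.6%), against 65% of all such peaks, and within 500 bp of a TSS in 4 of 13 (30.8%, 12.7 to 57.6%), against 46.1%. Of the 9 peaks inside the bodies of the 7 genes it was present in 5 (55.6%, 26.7 to 81.1%), close to the share over all peaks. The 9 peaks with the core were the start site peak of ELF3, the peak in intron 1 of EHF and the second in its intron 6, the first of the EHF upstream peaks, the ELF5 intron peak, the ELF2 internal peak, the SUGT1P3 and BCORL1 peaks and the intergenic peak of ELF4. With the whole peak searched, the share was 82.8% (65.5 to 92.4%), against 90% of all peaks, and the interval then includes the background. For CGGAAG or AGGAAG, searched in 300 bp, the share was 24.1% (12.2 to 42.1%), against 53.1% of all peaks. The list gives no summits, so the windows are centred on midpoints.

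The bare GGAA was present in 26 of the 29 windows (89.7%), with a median of 3 copies, and in 96.3% of all peaks, with the same median. The 3 without it were the first peak in intron 6 of EHF, the peak at the canonical TSS of ELF2 and the peak at KBTBD6. The letters CCGGAA, in which the core follows CC, were found in 3 of the 29 windows, in the SPDEF intron peak, the ELF1 start site peak and the first of the EHF upstream peaks, and in 16.3% of all peaks. CGGAAG was found in 2, at TIMM17A and SUGT1P3, and in 18.4% of all peaks. An AP-1 site was found in 4 of the 29 (13.8%, 5.5 to 30.6%), and in 16.7% of all peaks. They included the EHF upstream peak of 313 bp, the peak downstream of EHF and the peak at KBTBD6. None of the 4 held AGGAAG or AGGAAA in its 300 bp, but only 9 of the 29 (31%) did. The share among all peaks with an AP-1 site was not computed. AGGAAG shares its GGAA with CGGAAG and CCGGAA, which can overlap one another. The windows had a median GC content of 59.7%, against 58.7% over all peaks.

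**Figure D5:**
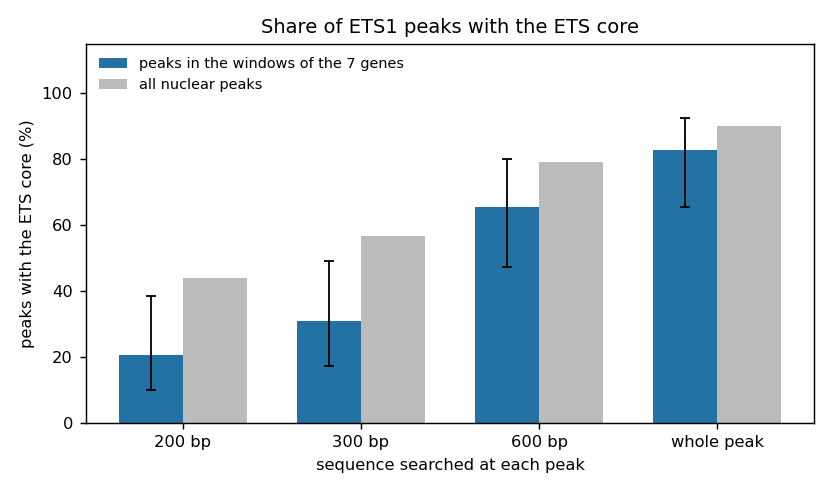
Share of ETS1 peaks (%) that hold AGGAAG or AGGAAA on either strand, by the length of sequence searched at the peak, for the 29 peaks in the windows of the 7 genes (blue, 95% Wilson intervals) and for all 26961 nuclear peaks (grey). The blue share is 20.7% against 43.9% at 200 bp and 31% against 56.8% at 300 bp, and its interval includes the grey share at 600 bp and over the whole peak.

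The other 21 human ETS genes were counted by the same rules. A peak lay at an annotated TSS in 16 of them and at the canonical TSS in 11, against 4 and 1 of the 7 epithelial ETS factor genes and the 53.1% and 46.7% of all protein-coding genes. These counts were not matched for CpG content. The 11 had CpG ratios of 0.682 (ELK1) to 0.946 (ETV6) at the canonical TSS. Those of the 21 below 0.6 were ERG, ETS1, ETV2, ETV3L, SPI1, SPIB and SPIC. None of them had a peak there, against 11.4% of all protein-coding genes below 0.6. ETV1 (0.743), ETV4 (0.784) and FEV (0.676) were above 0.6 and had none there either. ELF3, EHF, ELF5, SPDEF and ELF1 were all below 0.6. Whether CpG content accounts for the difference between the 2 lists was not tested. An intron peak without one at a TSS was found in 1 of the 21, SPI1, the blood cell factor also called PU.1, and in ELF5 and SPDEF among the 7. No peak at a TSS or in the body was found in 4 of the 21, and in ELF4 among the 7. The median number of peaks in the window was 6 for the 21 genes and 3 for the 7, and per 100 kb it was 1.84 and 1.37. The number of distal peaks among the 21 had a median of 3 and a range of 0 to 8, so that the 7 at EHF lay within their range.

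By presence of a TSS peak and nearest density of peaks, the gene most like both ELF3 and EHF was ELK4, with 2.99 peaks per 100 kb. SPIB, with 2.35, was nearest to ELF5, ETV3L, with 0.908, to SPDEF and ELF4, and ETV3, with 0.92, to ELF1 and ELF2. This likeness rests on 2 values per gene from 1 list.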

How the data were processed

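The authors profiled ETS1 by ChIP-Seq in SCC25, with C20 in 2 samples and 501A in 1. The submitters' processing notes name hg19, Bowtie 1.1.1 and SAMtools 1.3. Per the paper's methods, reads with a single locus were kept, peaks were called with MACS2 against a merged input, and IDR gave 1 consensus list. The deposited file holds 3 columns (chromosome, start and end, counted from 0, printed here 1-based), with no unit of signal, and all belong to the pool of the 3 samples. All 26961 nuclear peaks end within the GRCh37 chromosomes.

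Gene models came from GENCODE release 44 mapped to GRCh37. Peaks were placed by midpoint and classed in the order TSS of the member, TSS of another gene, exon or intron of the member, other gene, intergenic. A canonical transcript was marked for 19881 genes. CpG ratios were computed over 500 bp on each side of the canonical TSS. Alternatives were another TSS distance (1000 or 250 bp), TSS set, window (50 kb), overlap rule, sequence length or motif, and the first 13485 lines of the list. Coordinates are printed only for peaks described one by one, and 1 sequence is not reported here. No test was run, since a pooled list has no replicates. The 7 genes, the rule naming all of them, and the comparison list of 21 ETS genes were chosen with earlier results of these data known. The code was tested on simulated data, where all 200 genes given a simulated peak were recovered among 20163. The simulated peaks were placed inside the limit of 500 bp from the canonical TSS. The recovery shows only that such peaks are found, and false calls and position classes were not checked. Software was Python 3.11.15 with pysam 0.24.0, scipy 1.17.1, numpy 2.4.6, matplotlib 3.10.9 and pandas 2.3.3.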

Additional observations from a re-analysis of the deposited data

How the results depend on the processing

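No paired analysis was possible because the list is pooled over the samples and no result comes from a test, and for the same reason no replicate could be left out. Over 21 results and 55 alternatives, 33 values stayed within the interval of the reported share or within 1.5 times the reported count or median, and 22 did not. The share of protein-coding genes with a peak at a TSS was 56.9% with 1000 bp, 44.6% with 250 bp, 46.7% with the canonical TSS, 50.5% with protein-coding transcripts, 57.4% with any base of the peak and 34.8% with the first 13485 lines of the list. The members with a TSS peak numbered 1 (ELF2) at the canonical TSS, 3 (ELF3, EHF and ELF2, without ELF1) with 250 bp and 2 (ELF1 and ELF2) with the first 13485 lines. With those lines the distinct peaks were 16 and the intergenic ones 6, and the windows held 4 peaks at ELF3, 5 at EHF, 3 at ELF5, 1 at ELF2 and 1 at ELF4. With 50 kb, ELF5 had 2 and SPDEF 1, and the distal peaks, a count added after seeing the data, were 1 at ELF5 and 1 at SPDEF. The share of peaks with AGGAAG or AGGAAA was 65.5% in 600 bp and 82.8% in whole peaks, and GGAA alone, chosen after seeing the data, gave 89.7%. A longer stretch or shorter word matches more often by construction. Likewise, keeping only the first 13485 lines can only lower a count. The interval of the share over 20163 genes is narrow (52.4 to 53.8%), so small shifts fall outside it. The tally of 22 is therefore partly set by these choices. Peaks just below the IDR threshold are absent from the list, so a gene without a peak is not shown to be unbound.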
